A study of Homo sapiens with 4 samples.

Results

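Doxorubicin, an anthracycline used against many tumours, was set against no treatment in MelJuSo, a human melanoma cell line, on Illumina expression beadchips. The doxorubicin cells had received 9 µM of the drug for 2 h, were washed, and gave RNA 1 day after removal. For the untreated cells the labels give no time, so their time in culture relative to the drug is unknown. The series holds 4 arrays, 1 per group, and the other 2 are aclarubicin at 10 µM and etoposide at 10 µM with aclarubicin at 10 µM, for the same 2 h and 1 day. All groups are the same cell line, and the arrays are RNA from whole cultures. The comparison covers the probes that carry 1 gene symbol and had a detection p-value under 0.01 on at least 1 of the 2 arrays. Of 48803 probes, 13026 met this, standing for 9989 genes of the 18665 named by the chip's probes. Of these genes 8517 were detected on both arrays, 1142 on the doxorubicin array only and 330 on the untreated array only. Since each group has 1 array, no spread between cultures can be measured, no test was made, and the differences describe 2 arrays.

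Doxorubicin intercalates into DNA and holds topoisomerase II on the DNA it has cut, which leaves double-strand breaks. Such breaks activate the transcription factor p53, which raises genes of cell-cycle arrest, DNA repair and cell death, while the E3 ligase MDM2 and the phosphatase PPM1D, both induced by p53, restrain it again. Dividing cells that stop lower the genes of mitosis, and MYC, a driver of growth, controls genes of ribosome assembly and nucleotide synthesis.

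The signal is the deposited mean bead intensity of a probe, without normalization. A log2 difference is doxorubicin minus untreated after background correction and quantile normalization, and a gene is called higher or lower from 2-fold. Where a gene was detected on 1 array only, its fold is a lower bound under this processing and is written "at least". Such a gene can be called in 1 direction only. The error that can be read from these arrays is technical, from 2056 genes with a pair of detected probes. The gap between a pair's log2 differences gave an SD of 0.34 per probe, which is the SD of the gap divided by the square root of 2. Of the pairs, 80.8% lay within 0.5 of each other. The 2-fold mark was reached by 1162 genes (11.6%) upward and 1002 (10.0%) downward, so 53.7% of the called genes were higher. Counts of called genes in the lists below are to be read beside these shares. The doxorubicin array detected more probes, 14773 against 13521, and the higher calls include genes seen on that array only. Past 4-fold the directions parted, with 328 genes (3.28%) higher and 129 (1.29%) lower, and past 16-fold there were 27 (0.27%) higher and 0 (0.0%) lower. These 27 include the 12 highest lower bounds of genes detected on the doxorubicin array only. Among genes detected on both arrays 940 were at least 2-fold higher and 943 lower. The 0 depends on the processing, since TENM3 was at least 21.2-fold lower in the authors' normalized values. In bulk RNA, fewer cells of a kind and less RNA per cell cannot be told apart. The cells kept their melanocyte label in part: 10 of 15 melanocyte-lineage markers were detected on each array, whereas MLANA, TYR, OCA2, SLC45A2 and S100B were detected on neither. The summed signal of that marker list was 6008 in untreated cells and 4423 after doxorubicin. Within it TYRP1 alone went from 2111 to 440.3, a larger fall than that of the sum. Of the markers of other cell types, 3 of 8 for fibroblasts, 1 of 6 for epithelium, 1 of 6 for leukocytes and 1 of 4 for endothelium were detected in untreated cells, and 3, 1, 2 and 2 after doxorubicin. Their summed signals in untreated cells and after doxorubicin were 1219 and 1272 for fibroblasts, 840.3 and 699 for epithelium, 862 and 1272 for leukocytes and 230.2 and 414 for endothelium, and their part in the results was not tested. On 1 array or both, the detected ones were LUM, PDGFRB, PDGFRA and TWIST1 for fibroblasts, KRT10 for epithelium, CD14 and CD68 for leukocytes and PECAM1 and VWF for endothelium. The fibroblast genes COL1A1, COL1A2, COL3A1 and DCN, the epithelial genes KRT5, KRT14, KRT1, CDH1 and EPCAM, the leukocyte genes PTPRC, CD3E, MS4A1 and LYZ and the endothelial genes CDH5 and KDR were detected on neither.

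**Figure D1:**
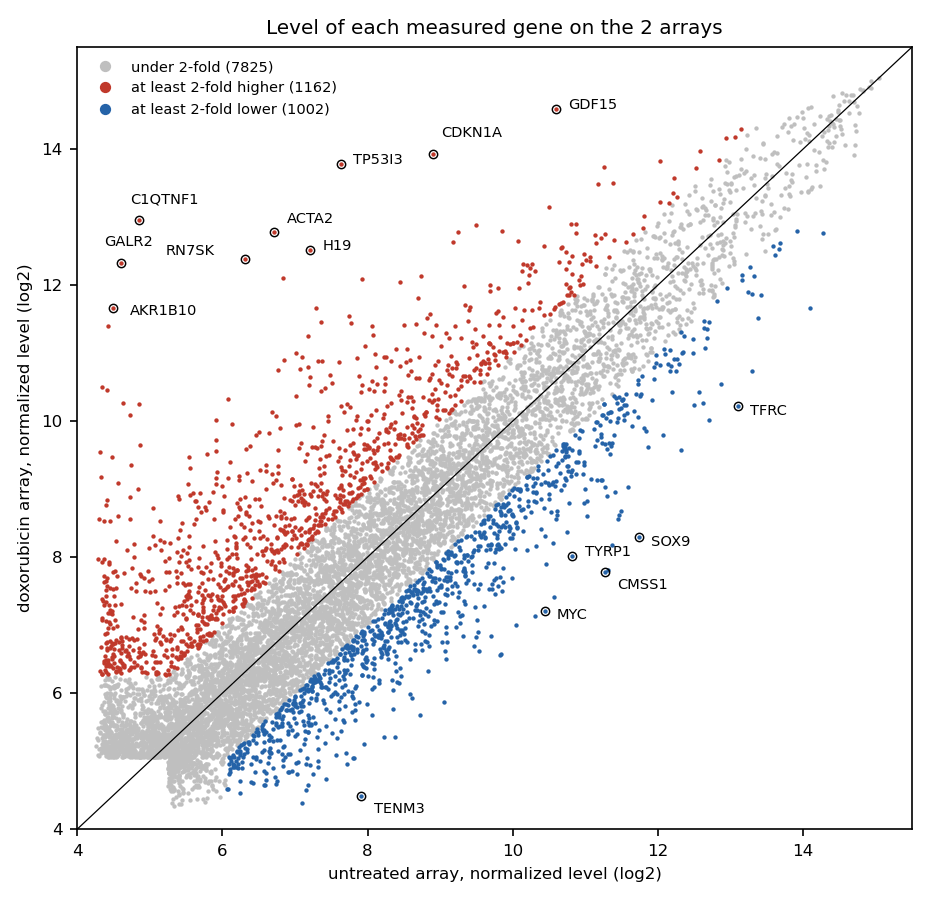
Normalized level (log2) of each of 9989 genes on the untreated array (x axis) and the doxorubicin array (y axis), 1 point per gene, with the line of equal level. Red points are the 1162 genes at least 2-fold higher and blue points the 1002 at least 2-fold lower, judged by the lower bound where a gene was detected on 1 array only. The highest genes lie farther from the line than the lowest.

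Some promoters of the leading higher genes held a match to the p53 half-site, the 10-base core to which a pair of p53 molecules binds. Those of the 3 such genes with the largest folds are shown. Each sequence is the RefSeq promoter of GRCh38.p14, 250 bases before to 50 after the gene's start, 5′ to 3′ on the gene's strand, with the half-site in capitals. ACTA2, which encodes smooth muscle actin, lies at chr10:88991288-88991587 on the minus strand and held 2 half-sites, PADI4 at chr1:17307947-17308246 on the plus strand, and RNASE7 at chr14:21042112-21042411 on the plus strand.
ACTA2: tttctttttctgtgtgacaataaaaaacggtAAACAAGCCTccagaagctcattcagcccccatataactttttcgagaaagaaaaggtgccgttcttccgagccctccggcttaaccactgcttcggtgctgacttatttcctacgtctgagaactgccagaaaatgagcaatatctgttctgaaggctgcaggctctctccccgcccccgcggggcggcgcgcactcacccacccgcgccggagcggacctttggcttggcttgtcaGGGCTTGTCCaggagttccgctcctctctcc
PADI4: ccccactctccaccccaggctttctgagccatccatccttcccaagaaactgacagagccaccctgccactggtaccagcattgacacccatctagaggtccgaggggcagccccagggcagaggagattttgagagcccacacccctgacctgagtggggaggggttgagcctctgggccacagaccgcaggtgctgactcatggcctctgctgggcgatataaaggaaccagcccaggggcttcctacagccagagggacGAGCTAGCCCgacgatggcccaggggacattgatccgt
RNASE7: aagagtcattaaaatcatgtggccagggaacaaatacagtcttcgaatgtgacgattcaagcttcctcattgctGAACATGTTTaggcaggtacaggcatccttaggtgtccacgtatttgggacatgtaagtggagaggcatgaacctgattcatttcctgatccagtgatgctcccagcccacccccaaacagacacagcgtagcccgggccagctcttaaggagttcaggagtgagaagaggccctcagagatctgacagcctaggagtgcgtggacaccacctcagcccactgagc
Of the 42 leading higher genes (30 detected on both arrays and 12 lower bounds), 33 had a promoter in the table and 5 of these (15.2%) held a half-site on either strand, the other two being CPA4 and MR1. Of 31 promoters of the leading lower genes, 0 did. Over all 27305 promoters the share was 6.54%, and over those of measured genes 5.29%. Over the genes at least 2-fold higher and lower it was 7.001% and 5.04%. At 4-fold it was 7.58% (20 of 264) and 6.73% (7 of 104), and among the known p53 targets described next 3 of 38 (7.89%) held one. A match is a description of the letters and does not show that p53 binds there.

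In 3 lists of genes that p53 is known to induce, all called genes were higher, while the feedback genes given further below went both ways. These lists were chosen with earlier results of these data known. Of 11 measured arrest genes 7 reached 2-fold upward and 0 downward, of 15 death genes 9 and 0, and of 24 genes of repair and metabolism 18 and 0. TP53I3 and RPS27L stand in more than 1 of these lists. The median log2 differences were 1.16, 1.19 and 1.64, where the median over all genes was 0, and -0.08 over genes detected on both arrays. In the authors' normalized values the first of these was 1.78.

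**Figure D2:**
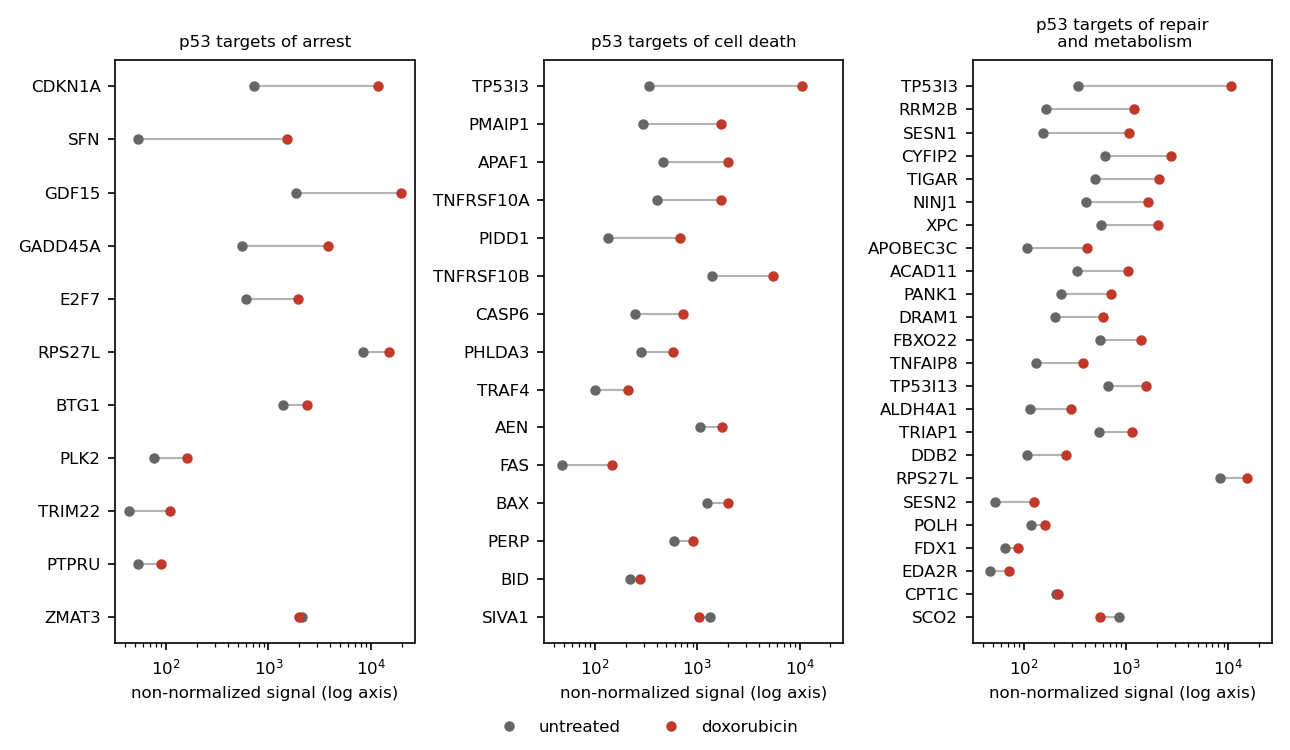
Non-normalized signal (log axis) of every measured p53 target gene of 3 roles on the untreated array (grey) and the doxorubicin array (red), 1 array each, ordered by the normalized difference. SIVA1, ZMAT3 and SCO2 are the members whose signal was lower after doxorubicin, all by less than 2-fold after normalization.

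Among the arrest genes, CDKN1A, the CDK inhibitor p21, had a signal of 727 in untreated cells and 11823 after doxorubicin, 32.6-fold higher, or 16.9-fold without scaling between arrays. SFN, the 14-3-3 sigma protein that keeps cyclin B complexes out of the nucleus, had 53.2 and 1501 and was detected only after the drug, at least 32.2-fold higher. GDF15, a secreted stress cytokine of the TGF-beta family, reached 19686 from 1876, 16.02-fold higher. All 3 were bright after the drug, and SFN started from background. GADD45A, a stress sensor that binds PCNA, had 549 and 3844 (12.1-fold), and E2F7, a repressor of E2F genes, 604 and 1924 (4.41-fold). RPS27L was 2.23-fold and the antiproliferative gene BTG1 2.16-fold higher, close to the threshold. PLK2, at a log2 difference of 0.99, lay just under it, and ZMAT3, an RNA-binding p53 target, had 2123 and 1989, a log2 difference of -0.02.

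Among the death genes, TP53I3, a quinone oxidoreductase, had a signal of 339.9 in untreated cells and 10536 after doxorubicin, the largest difference of all genes detected on both arrays at 70.6-fold. Without scaling it was 34.0-fold. PMAIP1, the BH3-only protein NOXA, had 297 and 1692 (8.42-fold). The apoptosome scaffold APAF1 had 458 and 1986 (6.45-fold). Both TRAIL receptors were higher: TNFRSF10A went from 408 to 1726 (6.10-fold) and TNFRSF10B from 1391 to 5496 (6.01-fold). PIDD1, a death-domain adaptor that activates caspase-2, was 6.07-fold and the executioner caspase CASP6 3.49-fold higher. The death receptor FAS was detected only after doxorubicin (47.8 and 148), with a bound of at least 1.89-fold, under the threshold. The pore former BAX stood under 2-fold with 1251 and 1979.7, and SIVA1 at a log2 difference of -0.43.

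Of the genes of repair and metabolism, RRM2B, the p53-induced subunit of ribonucleotide reductase, had a signal of 165 in untreated cells and 1191 after doxorubicin (10.1-fold). SESN1, a sestrin that restrains mTORC1, had 153 and 1076 (9.53-fold). CYFIP2 was 6.80-fold higher, and TIGAR, a phosphatase that lowers glycolytic flux, 6.41-fold, from 497 to 2120.2. At the other end POLH, a translesion polymerase, differed by 0.34 and SCO2, which assembles cytochrome c oxidase, by -0.72. PRODH, the proline dehydrogenase that is also a p53 target, was not in these lists but among the leading lower bounds, with 59.7 and 1492, at least 31.8-fold higher.

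The feedback genes went both ways. Of 11 measured, 3 were higher and 3 lower. PPM1D, the phosphatase that switches the response off, had a signal of 535 in untreated cells and 2267 after doxorubicin (6.38-fold), and MDM2 70.2 and 207, at least 2.77-fold higher. The ubiquitin ligases COP1 and RCHY1, which also act on p53, were lower. COP1 had 1249 and 659 (2.21-fold) and RCHY1 271 and 99.9 (3.27-fold). CCNG1, a common p53 target, differed by -0.31, and MDM4 and TP53INP1 were detected on the doxorubicin array only, at 88.9 and 82.4.

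Of the enzymes the drug itself meets, TOP2A, the topoisomerase II of dividing cells, had a signal of 3154 in untreated cells and 2812 after doxorubicin, a log2 difference of -0.03. TOP2B, the form of all cells, had 1219 and 635 and was 2.22-fold lower, the 1 called gene among 11 topoisomerases and adduct-removing enzymes. TDP1 and TDP2, which free DNA ends from trapped topoisomerases, differed by -0.36 and -0.19. Of 12 genes that reduce or transport anthracyclines, 4 were higher and 2 lower. The aldo-keto reductase AKR1B10 was detected only after doxorubicin (48.1 and 3099), at least 84.6-fold higher, as was AKR1C3 (72.9 and 385), at least 5.78-fold. AKR1C2 had 89.5 and 347 (4.15-fold). AKR1C2 and AKR1C3 are near-identical neighbours, so a probe of one may pick up the other. The carbonyl reductases CBR1 and CBR3 differed by -0.18 and -0.42 and the quinone reductase NQO1 by -1.003. Of the export pumps ABCC2 was 7.49-fold higher (149 and 863) and ABCC4 3.69-fold lower (353 and 117).

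The genes that drive the cell cycle split by phase. The mitosis list had 60 measured genes, 19 of them lower and 2 higher (median -0.80). The list of G1/S and replication had 45, with 4 lower, 4 higher and a median of -0.03, which turned to 0.05 without scaling. CDC20, which activates the anaphase-promoting complex, had a signal of 5832 in untreated cells and 1502 after doxorubicin (5.12-fold lower). The mitotic kinesin KIF11 had 2454 and 824 (3.79-fold lower), and CCNB1, cyclin B1, 896 and 324 (3.42-fold lower). UBE2S, the ubiquitin carrier of the same complex, was 3.66-fold and the kinesin KIF14 3.02-fold lower. The members that stood higher were CDC25C, a phosphatase that starts mitosis, at 242 and 549.6 (2.54-fold), and PTTG1, securin, at 6754 and 11274. In the replication list the sliding clamp PCNA, also a p53 target, had 4681 and 9337 (2.57-fold higher) and GINS4, a part of the replicative helicase, was 2.62-fold higher. Thymidine kinase TK1 was 2.21-fold higher. Against them, DUT, which hydrolyses dUTP, was 3.96-fold, the ribonucleotide reductase subunit RRM2 3.42-fold and the polymerase subunit POLA1 3.24-fold lower. RRM2 and its p53-induced counterpart RRM2B thus lay on opposite sides.

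The promoter of CDC20 is shown because most mitosis promoters shared its motif, the cell cycle homology region TTTGAA, to which repressor and activator complexes of the cell cycle bind. It lies at chr1:43358731-43359030 (plus strand, RefSeq, GRCh38.p14), and the capitals mark TTTGAA and its reverse complement.
CDC20: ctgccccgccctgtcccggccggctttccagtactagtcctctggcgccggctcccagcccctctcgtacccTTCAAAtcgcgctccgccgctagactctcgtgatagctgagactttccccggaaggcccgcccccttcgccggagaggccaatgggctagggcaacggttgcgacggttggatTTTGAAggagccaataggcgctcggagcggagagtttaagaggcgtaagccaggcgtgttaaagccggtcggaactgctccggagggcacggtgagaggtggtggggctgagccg
TTTGAA stood on either strand in 35 of 50 mitosis promoters (70.0%), in 9.92% of those of measured genes and in 15.4% of all promoters. It was present in 10 of 16 promoters of the mitosis genes that were at least 2-fold lower and in 25 of 32 of those under 2-fold, and the median log2 difference was -0.78 with it and -0.86 without it.

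Among D cyclins, CDKs and their inhibitors, CDK6, the G1 kinase that pairs with D cyclins, had a signal of 1042 in untreated cells and 194 after doxorubicin (7.54-fold lower). The D cyclins parted: CCND3 went from 2731 to 5849 (2.81-fold higher), and CCND1 from 7181 to 3645 (at the 2-fold threshold, lower). The pocket proteins did likewise, RBL2 at 1.02 and RBL1 at -1.18. E2F5 was 3.002-fold lower. The repair and checkpoint list held 52 genes, 9 of them lower and 1 higher. H2AX, the histone marked at breaks, had 2027 and 536 (5.19-fold lower). The checkpoint kinase CHEK2 was 2.73-fold lower. The glycosylase NTHL1, which starts repair of oxidised bases and was not in that list, was among the 30 lowest genes, with 523 and 114 (5.97-fold lower).

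Among the BCL2 family, 3 of 18 were higher (16.7%) and 1 lower (5.56%), where all genes gave 11.6% and 10.0%. BCL2L1, which encodes BCL-XL, an inhibitor of apoptosis, had 944 in untreated cells and 3206 after doxorubicin (5.15-fold higher). BCL2, its relative, had 224 and 62.2, was no longer detected and was at least 3.75-fold lower. Thus inhibitors of the same family stood on both sides, and the third called higher gene beside NOXA was BCL2L13 (2.57-fold). CFLAR, the caspase-8 inhibitor FLIP, was 2.38-fold higher and cytochrome c, CYCS, 2.14-fold lower. Of other TNF receptors and ligands, TNFRSF14, the receptor HVEM, had 976 and 3121 (4.82-fold higher) and TNFSF9, the ligand of 4-1BB, 78.6 and 287 (3.79-fold higher). TNFRSF21, death receptor 6, was 3.22-fold lower.

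The 12 highest lower bounds belonged to genes that were not detected in untreated cells. C1QTNF1, a secreted relative of complement C1q, had 59.8 in untreated cells and 6606 after doxorubicin, at least 207-fold higher, the largest bound. The galanin receptor GALR2 had 52.3 and 4497 (at least 135-fold). Both bounds depend on the processing. Over other choices of background and scaling and the authors' values, that of C1QTNF1 ran from 109-fold to 298-fold and that of GALR2 from 71.2-fold to 201-fold. PADI4, which converts arginine of histones to citrulline, had 45.4 and 2714 (at least 70.7-fold), and the antimicrobial ribonuclease RNASE7 40.6 and 1694 (at least 37.8-fold). These 4 were at background in untreated cells and well above it afterwards. The lens protein gene CRYBA1 was at least 36.9-fold, CYSRT1 at least 28.6-fold, the lysosomal fucosidase FUCA1 at least 21.02-fold, LCN15 at least 19.6-fold and LCE1B, a late cornified envelope gene of the epidermis, at least 18.6-fold higher. All 12 of the highest bounds had signals of at most 60.4 in untreated cells.

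Of the 30 highest genes detected on both arrays, ACTA2 had a signal of 191 in untreated cells and 5959 after doxorubicin (67.1-fold). HES6, a helix-loop-helix regulator of neural differentiation, had 409 and 3985 (17.96-fold), and MR1, which presents vitamin metabolites to T cells, 113 and 1318 (17.1-fold). SLC30A1, which exports zinc across the plasma membrane, had 256 and 2497 (16.8-fold). The receptor tyrosine kinase EPHA2 had 112 and 1123 (14.03-fold), the kinase SRC 363 and 2926 (13.96-fold), and JUP, plakoglobin of desmosomes, 89.1 and 893 (13.5-fold). The actin bundler FSCN1 was 11.7-fold and AHNAK2 17.04-fold higher. Enzymes among them were the carboxypeptidase CPA4 (15.3-fold), adenylate kinase AK1 (14.5-fold), the carboxylesterase CES2 (12.8-fold), the collagen hydroxylase subunit P4HA2 (12.2-fold) and mitochondrial isocitrate dehydrogenase IDH2 (11.9-fold). MIB2, a ubiquitin ligase of Notch ligands, was 14.2-fold, FCRLA 15.9-fold, CDR2L 13.3-fold and ANKRA2 12.9-fold higher. PSG4, a pregnancy-specific glycoprotein, was 15.9-fold higher, but its paralogs are near-identical and may share its probe. SUGCT, which spans the most DNA of these genes, had 206 and 3993 (38.6-fold).

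Surface receptors and guidance molecules held more higher than lower genes. Of 24 ephrin, semaphorin and guidance genes 8 were higher and 3 lower, and of 26 receptor tyrosine kinases and ligands 7 and 3. Only 14 and 17 of these were detected on both arrays. A gene detected on the doxorubicin array only could not be called lower, and the part of this in the excess was not tested. EFNB1, a transmembrane ephrin, had 88.6 in untreated cells and 522 after doxorubicin (6.85-fold), and EFNA1, a ligand of EPHA2, 56.8 and 334 (at least 4.88-fold). The plexin PLXNB2 was 5.82-fold and the semaphorin SEMA3B 4.43-fold higher. EPHA2 and its ligand EFNA1 were thus both higher. ROBO1, the Slit receptor, had 207 and 65.6 and was at least 3.45-fold lower, and EPHA3 at least 2.27-fold lower. Collagen receptor DDR1 had 56.2 and 708, at least 12.3-fold higher. The growth factors KITLG (5.12-fold), TGFA (5.04-fold) and HBEGF (3.02-fold) were higher, while ERBB3, a neuregulin receptor of melanocytes, had 1032 and 333 (3.95-fold lower). Of 11 integrins 4 were higher, among them ITGA3 (3.06-fold) and ITGB4 (at least 2.87-fold), and 2 lower, ITGA4 by 2.89-fold and ITGA6 by 2.13-fold. N-cadherin, CDH2, had 2675 and 1103 (2.93-fold lower).

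Matrix genes that TGF-beta or YAP induce split, with 6 of 20 higher and 5 lower. THBS1, the matrix protein thrombospondin, had 9088 in untreated cells and 1920.0 after doxorubicin (5.88-fold lower), and tenascin C, TNC, 3068 and 613 (7.20-fold lower). ANKRD1, a nuclear YAP target, had 251 and 950.1 (4.84-fold higher). The plasminogen activator PLAT was 4.48-fold higher and TGFBI 4.46-fold lower. Contractile genes had 6 of 24 higher and 1 lower. Beside ACTA2 these included MYLK, myosin light chain kinase (52.2 and 221, at least 2.98-fold), TAGLN, transgelin (at least 2.503-fold), and SMTN, smoothelin (2.77-fold). Tropomyosin TPM1 was 2.74-fold lower, and the cytoplasmic actins ACTB and ACTG1 differed by -0.24 and -0.65.

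Immediate early and MAPK feedback genes also split. EGR1, a zinc finger factor induced by growth signals, had 208 in untreated cells and 2079 after doxorubicin (16.5-fold), and its promoter at chr5:138465229-138465528 (plus strand, RefSeq, GRCh38.p14) is shown for its CArG boxes, the motif of serum response factor, in capitals.
EGR1: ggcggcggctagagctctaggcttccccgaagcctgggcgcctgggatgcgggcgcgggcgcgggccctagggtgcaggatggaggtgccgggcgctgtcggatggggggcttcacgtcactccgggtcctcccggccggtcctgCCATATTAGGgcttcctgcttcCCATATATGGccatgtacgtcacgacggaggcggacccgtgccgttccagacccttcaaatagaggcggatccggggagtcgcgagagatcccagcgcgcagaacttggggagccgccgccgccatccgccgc
A CArG box was found on either strand in 1.29% of all promoters and in 1.04% of those of measured genes. Among genes at least 2-fold higher the share was 1.67%, and among those at least 2-fold lower 1.32%. At 4-fold it was 1.14% (3 of 264) and 1.92% (2 of 104). The stress factor ATF3 had 186 and 1401 (10.9-fold), and the AP-1 subunit FOSB 87.5 and 316 (3.80-fold). FOSL1, another subunit, was 2.54-fold lower, and the Krüppel-like factors KLF2 and KLF6 3.604-fold and 2.60-fold lower. The ERK phosphatase DUSP5 had 335 and 2057 (9.58-fold higher), whereas the receptor tyrosine kinase brake SPRY2 had 2944 and 737 (5.45-fold lower). ID2, an inhibitor of helix-loop-helix factors, had 94.4 and 686 (9.04-fold), and its relative ID1 stayed under 2-fold at 0.94. In the Notch list RFNG (3.94-fold), NOTCH1 (3.65-fold) and LFNG (2.70-fold) were higher beside HES6, and the ligand DLL3 3.10-fold lower.

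Among 35 genes that interferon induces, 11 stood higher and 0 lower, for a median of 0.66. ISG20, an exonuclease against viral RNA, had 148 in untreated cells and 1047 after doxorubicin (9.62-fold), IRF1, an interferon regulatory factor, 102 and 655 (7.88-fold), and ISG15, a ubiquitin-like modifier, 88.2 and 425 (5.36-fold). HERC5, the ligase that attaches ISG15, was 5.89-fold higher. The signals stayed modest for most, and IFI44 and IFIT5 differed by -0.48 and -0.39. The promoter of ISG20 at chr15:88638766-88639065 (plus strand, RefSeq, GRCh38.p14) is shown because it is the highest member with the core of the interferon-stimulated response element, in capitals, a repeat to which interferon regulatory factors bind.
ISG20: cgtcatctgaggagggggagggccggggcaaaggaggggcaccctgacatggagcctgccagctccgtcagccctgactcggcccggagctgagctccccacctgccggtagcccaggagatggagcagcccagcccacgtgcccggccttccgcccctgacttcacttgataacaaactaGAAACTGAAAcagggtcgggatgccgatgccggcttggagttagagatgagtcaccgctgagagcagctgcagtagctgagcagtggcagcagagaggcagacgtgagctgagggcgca
That core was present on either strand in 19 of 29 promoters of the list (65.5%). It was present in 2.75% of the promoters of measured genes and in 3.65% of all promoters. It stood in 7 of 11 promoters of the higher members and in 12 of 18 of the others. Of 29 MHC and antigen presentation genes 4 were higher (13.8%) and 1 lower (3.45%), where all genes gave 11.6% and 10.0%. The higher ones included TAP1, the peptide transporter (850.1 and 5414, 10.96-fold), and HLA-B (722 and 2495, 5.12-fold), whose probe may pick up other class I genes. CIITA, the master regulator of class II genes, was 3.30-fold lower and HLA-DPB1 differed by -0.64. Of the inflammatory genes, PTGS2, which makes prostaglandins, had 75.02 and 491 (7.69-fold higher), and the chemokine CXCL1 136 and 70.5 (at least 2.23-fold lower).

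MYC, the growth regulator, had 1721 in untreated cells and 277 after doxorubicin (9.38-fold lower), and MXD4, a MAX partner that opposes MYC, 197 and 908 (5.95-fold higher). MXI1, another such antagonist, was 2.82-fold lower. Of 69 ribosome biogenesis genes 34 were at least 2-fold lower and 0 higher (median -0.99), the list with the largest share of lower members among those with 10 or more. CMSS1, a ribosome assembly factor, had 2730.3 and 382 (11.3-fold lower). BOP1, of the large subunit's PeBoW complex, had 3294 and 769 (5.89-fold lower), and the nucleolar chaperone NPM3 2773 and 712 (5.27-fold lower). At the upper end UTP3 and GNL2 differed by 0.50 and 0.43.

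The promoter of NOP2, an rRNA methyltransferase, is shown for the E-box CACGTG, the motif that MYC with MAX binds. It lies at chr12:6568242-6568541 (minus strand, RefSeq, GRCh38.p14), with the E-box in capitals.
NOP2: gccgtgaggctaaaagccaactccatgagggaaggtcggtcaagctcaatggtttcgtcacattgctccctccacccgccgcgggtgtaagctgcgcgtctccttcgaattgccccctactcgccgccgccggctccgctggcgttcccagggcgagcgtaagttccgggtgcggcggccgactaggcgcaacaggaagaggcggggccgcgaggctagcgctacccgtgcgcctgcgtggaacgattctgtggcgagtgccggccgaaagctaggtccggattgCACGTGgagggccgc
CACGTG reads the same on both strands. It was present in 20 of 58 promoters of the list (34.5%), in 10.7% of those of measured genes and in 7.43% of all promoters. It stood in 10 of 29 promoters of the lower members and in 10 of 29 of the others, and the median log2 difference was -1.03 with it and -0.94 without it. NOP2 itself had 1938 in untreated cells and 751 after doxorubicin (3.20-fold lower), and was chosen for print after its values were seen.

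Of 31 importins, exportins and RAN factors, which carry proteins through nuclear pores, 13 were lower and 2 higher (median -0.88). RAN, the GTPase that gives transport its direction, had 936 and 301 (3.92-fold lower) and RCC1, its exchange factor, 1219 and 369.5 (4.33-fold lower). KPNA1 was the higher one at 2.61-fold, with IPO13 at 2.503-fold. Of 31 nucleotide synthesis genes 9 were lower and 1 higher. PFAS, an enzyme of purine synthesis, had 1222 and 189.7 (9.58-fold lower), and MTHFD1L, which supplies formate to it, 1144 and 223 (7.25-fold lower). PAICS and GART, of the same pathway, were 2.74-fold and 2.65-fold lower. The exception was ADSS1, the muscle form of adenylosuccinate synthase, 3.05-fold higher. Of 28 enzymes of serine, other amino acids and one-carbon units, 7 were lower and 2 higher. PYCR1, which makes proline, had 253 and 70.3 (at least 4.30-fold lower), and ALDH18A1, of the same route, was 3.34-fold lower. Of the enzymes that make or break down polyamines, the spermidine synthase SRM was 3.05-fold and SMS 2.499-fold lower, while SAT1, which starts their breakdown, had 1779 and 7298 (6.28-fold higher).

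In protein synthesis, 7 of 19 aminoacyl-tRNA synthetases were lower and 1 higher, VARS1 by 3.17-fold and MARS1 by 2.94-fold lower, and SARS1 2.59-fold higher. RNA polymerase III differed by subunit: POLR3G, the form of undifferentiated cells, had 648 in untreated cells and 108 after doxorubicin (8.22-fold lower), and its paralog POLR3GL 495 and 1806 (5.22-fold higher). POLR2A, the large subunit of RNA polymerase II, had 1437 and 4205 (4.24-fold higher). RN7SK, the small RNA that sequesters P-TEFb, had 146 and 4678 (67.3-fold). Of 68 cytosolic ribosomal protein genes 13 were lower and 1 higher, the lower ones led by RPS7 (2885 and 479, 9.14-fold) and RPL36A (6.51-fold); many have pseudogenes of near-identical sequence, so these values are uncertain. Splicing and hnRNP genes had 18 of 59 lower and 2 higher. HNRNPA2B1 had 16217 and 3111 (5.41-fold lower), and SRSF7 was 3.37-fold lower. The 3 probes named for HNRNPA1 or its pseudogenes HNRNPA1P10 and HNRNPA1P33 were lower by at least 4.27-fold, 11.3-fold and 8.21-fold and may read the same transcript. The factors SRSF5 (2.10-fold) and SRSF8 (2.44-fold) were the higher ones.

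Of 65 nuclear-encoded respiratory chain genes 3 were higher and 4 lower, ATP5MC2, a subunit of the ATP synthase rotor, by 6.71-fold (4944 and 1032). Of 76 mitochondrial ribosomal genes 3 were higher and 13 lower, MRPL24 by 7.42-fold (3045 and 593). Of 33 proteasome genes 0 were higher and 2 lower. Of 23 glycolytic genes 2 were higher (8.70%) and 4 lower (17.4%), where all genes gave 11.6% and 10.0%. LDHA (18184 and 5870.1, 2.86-fold) and hexokinase HK2 (3.23-fold) were lower, and PFKFB4, a regulator of glycolysis, had 641 and 3395 (8.72-fold higher). Of 25 genes of cholesterol and lipid synthesis 3 were higher and 5 lower. Lower were the desaturase SCD (5469 and 1482, 4.80-fold), the fatty acid synthase FASN (2.99-fold) and the sterol enzyme SQLE (4.07-fold). TM7SF2, a sterol reductase, had 193 and 1359.5 (10.2-fold higher). Of 28 genes of peroxisomes and fatty acid oxidation 5 were higher (17.9%), among them ACADVL (4.24-fold) and CPT2 (3.55-fold), and 3 lower (10.7%). Of 43 lysosome and autophagy genes 17 were higher and 2 lower (median 0.81). The cathepsins CTSF (146 and 707, 5.95-fold) and CTSH (489 and 1650.2, 4.65-fold) led them, with ULK1, the kinase that starts autophagy, 3.95-fold and the sialidase NEU1 3.51-fold higher.

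**Figure D3:**
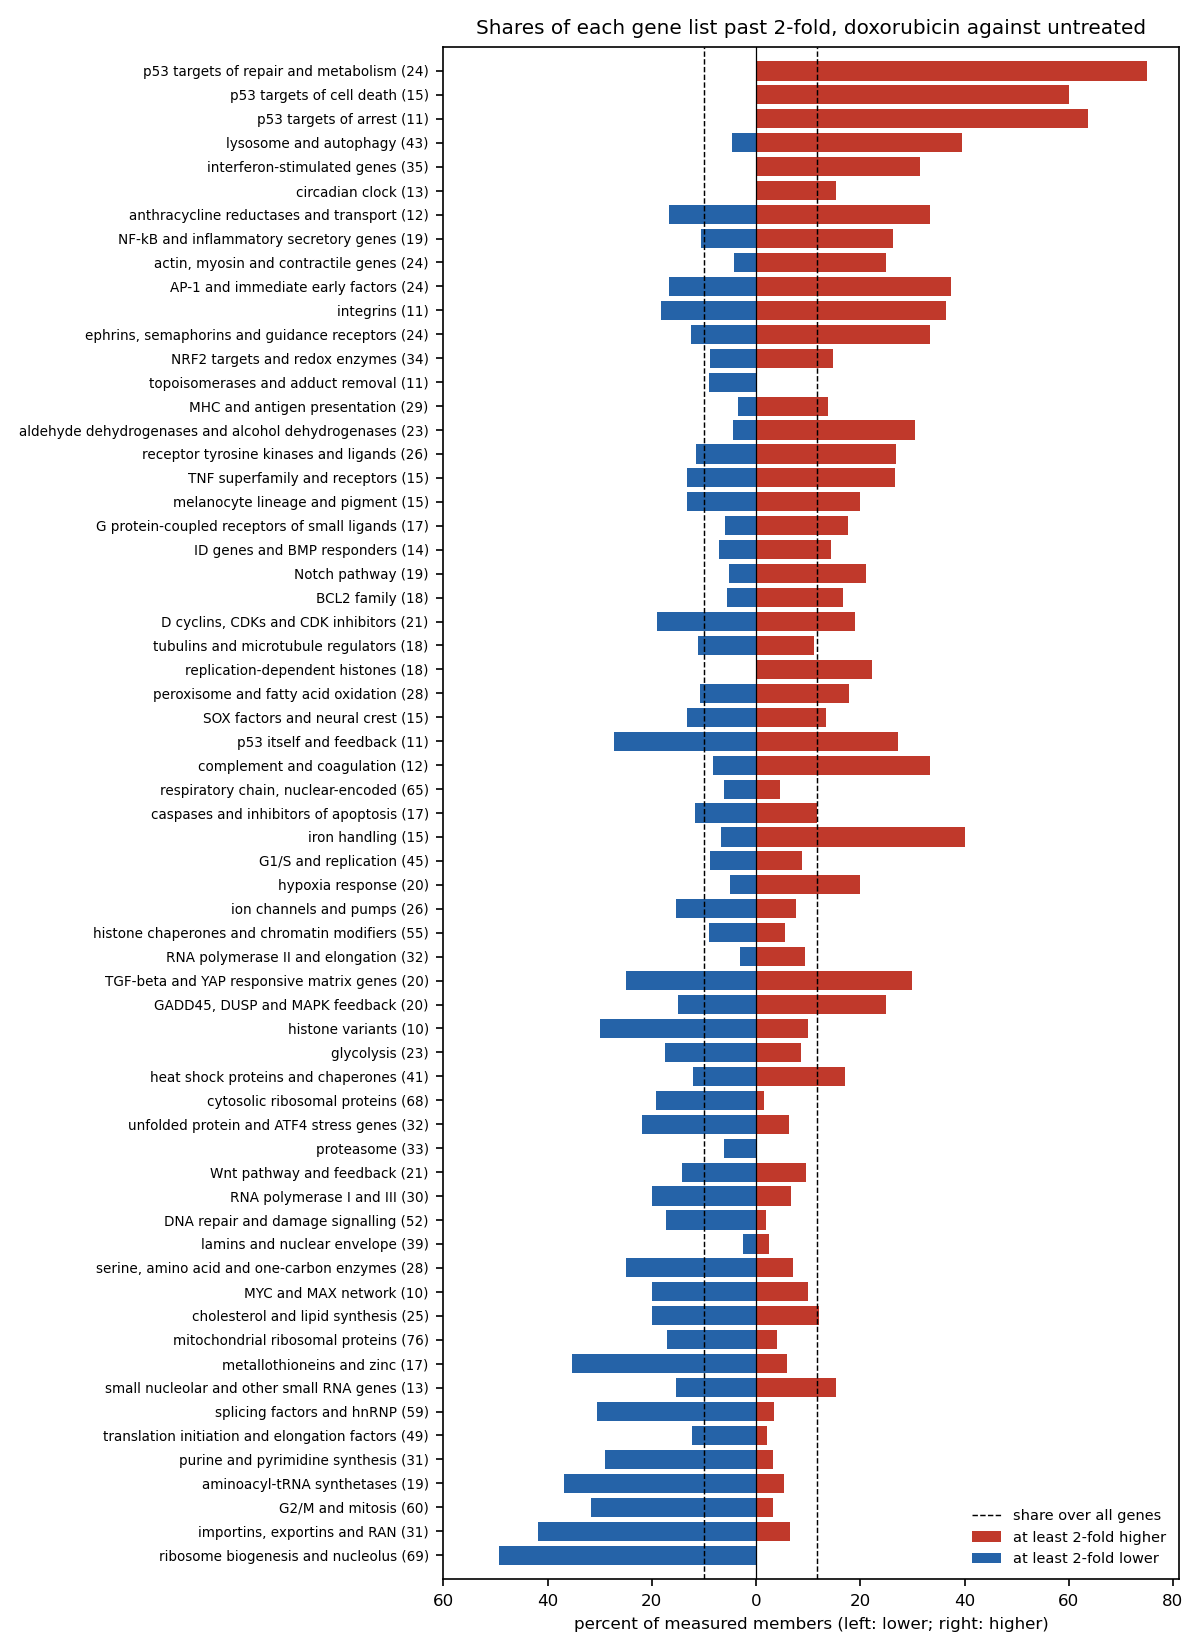
Percent of the measured members of each gene list with 10 or more members that were at least 2-fold higher (red, to the right) or lower (blue, to the left) after doxorubicin, with the number measured in brackets and lists ordered by median. Dashed lines mark the shares over all genes, 11.6% higher and 10.0% lower.

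The transferrin receptor TFRC, which imports iron, had 8018 in untreated cells and 1465 after doxorubicin (7.38-fold lower), and ferritin light chain FTL, which stores it, 7159.6 and 13752 (2.32-fold higher). HMOX1, which releases iron from haem, was detected only after the drug (69.7 and 583, at least 9.67-fold). Of 15 iron genes 6 were higher, also ISCU (4.98-fold), NCOA4 (2.64-fold) and ACO1 (2.56-fold), and TFRC alone was lower. Of 17 metallothionein and zinc genes 1 was higher and 6 lower. The exporter SLC30A1 was higher, while the importer family member SLC39A11 had 1217 and 189 (9.57-fold lower) and the metallothionein MT2A 6159 and 1315 (6.498-fold lower). MT1X was 2.16-fold lower. Among redox enzymes, GPX1 had 4228 and 11108 (3.47-fold higher), SOD2 546 and 1609 (3.88-fold higher) and GPX8 876 and 240.1 (4.74-fold lower). Heat shock genes included HSPA4L (6.13-fold) and DNAJB2 (5.49-fold) on the higher side and HSP90AB1 (2.70-fold) on the lower, and the endoplasmic reticulum chaperone HSPA5 was 4.28-fold lower (348 and 101).

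Lineage genes of the melanocyte moved unequally. TYRP1, an enzyme of melanin synthesis, had 2111 in untreated cells and 440.3 after doxorubicin (6.97-fold lower), and the melanocortin receptor MC1R 111 and 455 (4.53-fold higher). PMEL, the melanosome fibre protein, had 155 and 308 (log2 difference 1.001), and MITF and SOX10, the lineage's master factors, differed by -0.90 and -0.59. The neural crest factor SOX9 had 3609 and 513 (10.9-fold lower), and ZEB2 was 4.94-fold lower. SOX18 had 242 and 1105 (6.10-fold higher) and MSX1 459.6 and 1428 (4.16-fold higher). Histone genes included H2AC18 (112 and 1025, 12.6-fold) and H2BC5 (8.36-fold) on the higher side, where paralogs may share probes, and H2AJ, a variant, at 389.9 and 2109 (8.41-fold). H19, an imprinted RNA, had 261 and 5099 (39.3-fold). In the lower direction remained MFSD12, of melanosomes and lysosomes (788 and 122, 9.03-fold), TRIM2 (8.86-fold), FJX1 (9.05-fold), ZNF689 (7.09-fold), ANKRD28 (7.34-fold), UBASH3B (6.82-fold) and OR51B4 (8.08-fold).

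Genes that span much DNA held the larger share of lower calls. Of 617 genes spanning 200 kb or more, 24.3% were at least 2-fold lower and 5.51% higher (median -0.37), and of 1086 genes of 100 to 200 kb 11.8% and 7.55%. Genes under 5 kb had 7.84% lower and 13.99% higher. Without scaling, the longest genes had 23.7% lower and 7.78% higher. A span was known for 9982 genes. Long genes were also dimmer to begin with, with a median signal of 182 in untreated cells against 276 for those under 5 kb, and the part of this in the result was not tested. Of the 12 genes with the largest lower bounds among those lost after doxorubicin, 7 spanned 200 kb or more, with a median of 353 kb, and of the 12 gained 0 did, with a median of 6.61 kb. They included TENM3, a teneurin of cell contacts (405 and 48.2, at least 7.25-fold lower), the phospholipase PLCB1 (at least 6.74-fold), IMMP2L, a mitochondrial peptidase (358 and 66.8, at least 6.33-fold), TMTC2 (at least 5.19-fold) and the synaptic adhesion gene NLGN1 (at least 4.44-fold). In the group of the 30 lowest seen on both arrays 6 were as long, CDK6, SLC39A11, CMSS1, MTHFD1L, NFIB and GMDS. NFIB, a nuclear factor, had 610.2 and 127 (6.43-fold lower), and GMDS, which makes GDP-fucose, 596 and 131 (6.06-fold lower).

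**Figure D4:**
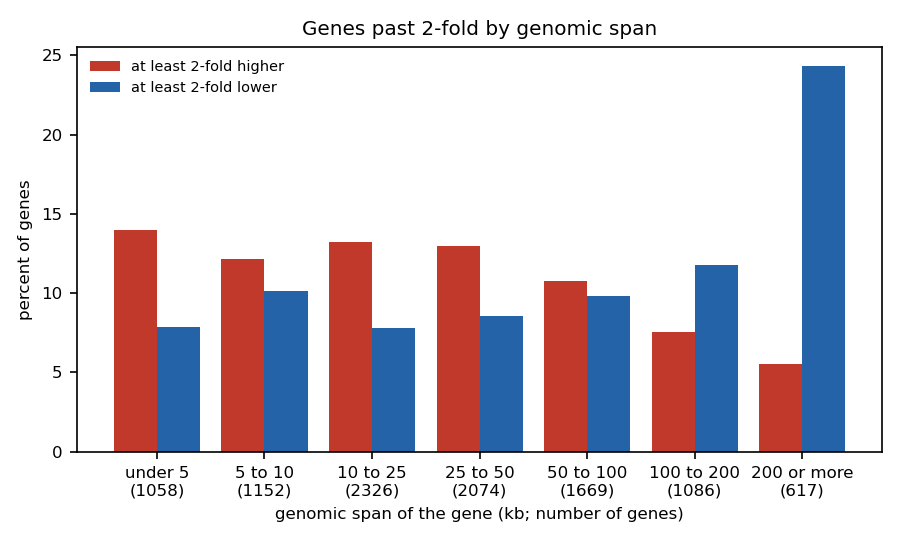
Percent of genes at least 2-fold higher (red) and lower (blue) after doxorubicin by genomic span of the gene (kb), with the number of genes in brackets. The share lower is 24.3% for 200 kb or more and 7.84% under 5 kb, and the share higher is 5.51% and 13.99%.

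Probes of 2 genes pointed opposite ways by 2-fold each. LAMP2, the lysosomal membrane protein with spliced isoforms, had 6 detected probes. On the probe of highest level its signal was 3573 in untreated cells and 1730 after doxorubicin, and on the probe with the largest positive difference 1122 and 2605, log2 differences of -1.17 and 1.66. RPL34 had 2056 and 3646 on its brighter probe and 977 and 274 on the other, log2 differences of 1.18 and -2.21. Among all called genes with other detected probes, LAMP2 and RPL34 included, 306 of 331 higher genes had all of those on the same side. Of the lower genes 282 of 294 did.

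The other treated arrays share the untreated array, so their differences are set beside these without comparison. They are given for the 4 highest and the 4 lowest genes detected on both arrays, a few described above and some list medians, picked after their values were seen. TP53I3 had a signal of 185 after aclarubicin and 252 after the combination, and differed from untreated by 0.14 and 0.91 on the log2 scale, against 6.14 after doxorubicin. RN7SK had 6331 and 8232, differences of 6.10 and 6.54 beside 6.07, and ACTA2 929 and 1403, differences of 3.28 and 4.03 beside 6.07. H19 had 254 and 344 (1.04 and 1.76 beside 5.30). GDF15 had 406 and 920.3, log2 differences of -1.67 and -0.34 beside 4.002. The log2 differences after aclarubicin and the combination were 0.13 and -0.30 for HNRNPA1P10 beside -3.49, -0.27 and -0.73 for CMSS1 beside -3.49, -1.27 and -0.82 for SOX9 beside -3.44, and -0.49 and -0.54 for PFAS beside -3.26. TFRC had 8681 and 7044, differences of -0.26 and -0.45 beside -2.88. MYC had 773 and 1085 (-0.68 and 0.00 beside -3.23), and MT2A 9193 and 10824 (0.21 and 0.50 beside -2.70). CDK6 had 102 after aclarubicin, a difference of -2.83 beside -2.91, and 55.4, not detected, after the combination. ZNF689 had 369 and 276 (-2.71 and -2.83 beside -2.83). Of the 12 highest lower bounds, GALR2 and FUCA1 were also detected on both other treated arrays, GALR2 at 192 and 248 and FUCA1 at 95.4 and 88.6, and the others on the doxorubicin array only. The list median after aclarubicin and the combination was -1.03 and -0.97 for ribosome biogenesis beside -0.99. For mitosis it was -1.31 and -2.03 beside -0.80, and for lysosome and autophagy 0.99 and 1.07 beside 0.81. For the p53 targets of arrest it was -0.16 and 0.48 beside 1.16, of death 0.07 and 0.28 beside 1.19, and of repair and metabolism 0.14 and 0.79 beside 1.64.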

How the data were processed

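Each group's RNA was read on 1 Illumina expression beadchip of 1 colour, and the treatment in the labels gave the groups. The deposited non-normalized table of the authors holds intensity values, 1 signal per probe and array, with no visible background subtraction. The deposited detection p-value of each probe is named per the file headers, without its formula. The authors' normalized values, which look like log2 values at the bright end, served as an alternative only. The submitters' processing notes name lumi.

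With limma 3.58.1 in R 4.3.3, signals were background-corrected by normexp (background level from the detection p-values, offset of 16), taken to log2 and quantile-normalized over the 4 arrays, which removes any shift of most genes. A probe counted as detected at a p-value under 0.01. The platform annotation gave 1 symbol for 27578 probes, several for 13 and none for 21212, and 27541 named probes matched a current table by Entrez identifier. A gene stands as its detected probe of highest mean level on the 2 arrays. A gene detected on 1 array has a bound: the dim side is set to the lowest level detected there, or to the probe's own if that is higher. A bound that falls past no change is set to 0, and the medians include such values. The number of arrays limits the precision.

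Genes at or past 2-fold were counted, with no test. Named genes were drawn mainly from the 30 highest and 30 lowest detected on both arrays whose probes share a direction and the 12 highest bounds each way. Others came from the 5 highest and 5 lowest of each list (all of a list of up to 15) and a few fixed genes. Not all of these are named in the text. The members and the 65 gene lists were chosen with earlier results of these data known. Promoters (RefSeq, GRCh38.p14) were searched on both strands. Alternatives were other background, scaling, detection, probe and fold choices. The calling step was tested on simulated data. Python 3.11.15, numpy 2.4.6, pandas 2.3.3 and scipy 1.17.1 were used.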

Additional observations from a re-analysis of the deposited data

How the results depend on the processing

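With 1 array per group, no value here carries replicate error, no array could be left out, and signal over background limits the dim genes. No paired analysis was possible because each group has 1 array and the replicate numbers come from accession order. The higher and lower counts at 2-fold, 1162 and 1002, lay between 875 and 1472 and between 687 and 1419 over the alternatives of background, scaling, detection and probe choice, and the share of higher among called genes between 49.9% and 60.6%. At 1.5-fold the counts were 2089 higher and 2150 lower, and at 3-fold 551 and 300. Without scaling 1332 genes were higher, of which 1022 were among the 1162, and 866 lower, of which 827 were among the 1002. In the authors' normalized values 1472 were higher and 1419 lower. For LAMP2 the log2 difference turned to 0.16, and for RPL34 to -0.51, with the mean over the detected probes, whose probes point opposite ways. No other named gene past 2-fold changed sign, and no list median of at least 0.34 in size did. The medians of 9 lists nearer 0 changed sign in at least 1 alternative. These were G1/S and replication, from -0.03 to 0.05 without scaling, TGF-beta and YAP genes, from -0.10 to 0.04, tubulins, from 0.10 to -0.02, D cyclins and CDKs, from 0.12 to -0.02 under cyclic loess, p53 feedback, from 0.02 to -0.58 among genes detected on both arrays, and the SOX, complement, hypoxia and respiratory chain lists. The median of the p53 arrest genes, 1.16, was 1.498 without scaling, 1.65 among genes detected on both arrays and 1.78 in the authors' values, and that of the death genes, 1.19, was 1.57 under cyclic loess and 1.73 in the authors' values; the cause was not tested. The folds of the 30 highest genes were 0.48 to 1.14 times as large without scaling and those of the 30 lowest 0.68 to 1.16 times.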

Other observations

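Of 6749 pairs of neighbouring measured genes within 100 kb of each other, 126 were both at least 2-fold higher, 57 both lower and 140 opposed. Over all genes 11.6% were higher and 10.0% lower. How many such pairs these shares alone would give was not worked out, and an effect of neighbourhood was not tested. At 4-fold 14 pairs were both higher and 1 was both lower; these genes were picked after their values were seen. The peptidylarginine deiminases PADI3 and PADI4 differed by 2.98 and 6.14 on the log2 scale, the aldo-keto reductases AKR1B10 and AKR1B15 by 6.40 and 3.51, and the cytidine deaminases APOBEC3C and APOBEC3F by 2.07 and 2.37. HAPLN3, a link protein of hyaluronan, and MFGE8, a bridge to apoptotic cells, differed by 3.27 and 3.38, and the growth hormone genes GH2 and GH1 by 3.28 and 2.71. Paralogs such as GH1 and GH2, AKR1B10 and AKR1B15, and the APOBEC3 genes share sequence, so a probe of one may read the other. The pair on the lower side was MFSD12 and HMG20B, at -3.18 and -2.28.

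Of the small nucleolar RNA genes, which sit in introns of other genes, 36 were measured: 6 passed 2-fold downward (16.7%) and 1 upward (2.78%), and their median was -0.68 (log2). Of 66 long non-coding RNA genes 12 were higher (18.2%) and 4 lower (6.06%), where all genes gave 11.6% and 10.0%. Another 2468 probes detected on at least 1 of the 2 arrays carry no gene name here. Of these, 7.496% were at least 2-fold higher and 8.91% lower, where the named probes gave 10.5% and 10.0%.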
